A study of Drosophila melanogaster with 20 samples.

Results

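A set of 116 genes was examined whose transcript level was near that of the control in 3 partial loss-of-function alleles of mef2 and lower in embryos with the mef2 null allele. The data came from Affymetrix arrays of whole Drosophila melanogaster embryos at mid stage 13, with 4 arrays for each of 5 genotypes. For each gene with 1 symbol, the probe set with the highest mean signal was used, and levels were compared as group means of log2(signal + 16). Genes were kept where the means of alleles 65, 424 and 113 each lay less than 0.4 from the control, and where the null mean lay at least 0.6 below the control and at least 0.6 below each of those alleles. Of 8359 genes with a mean log2 level of at least 4.66 over all 20 arrays, 116 met these conditions, or 1.39%. The levels of the null, the hypomorphs and the control therefore chose the genes, and their differences from the control are given as descriptions without a test.

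Mef2 is a MADS-box transcription factor that drives differentiation of the somatic, visceral and cardiac muscles of the fly, and it activates many genes of the contractile apparatus. Embryos without it form myoblasts that fail to differentiate. Genes that respond at different levels of Mef2 activity were the subject of the allelic series, which the labels rank from control through 65, 424 and 113 to the null 22.21.

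The control was the stock dp cn a px sp, in which recessive visible markers are carried on the second chromosome, the chromosome that also holds mef2. Alleles 65, 424 and 113 were induced in that stock, whereas the labels do not name the stock of origin of 22.21. Embryos from 30-minute collections were aged for 6.5 h at 25 °C, staged singly and pooled by 150, and mutants were picked for lacking a CyO balancer that carries GFP. Whether the 4 arrays per genotype stand for separate embryo collections is not stated in the labels, so the spread between them may be technical. Since the labels tie the hypomorphs but not the null to the control stock, mef2 genotype and stock background cannot be told apart for it. RNA came from whole embryos, in which fewer cells of a type and less RNA per cell cannot be told apart. Mef2 itself was not analysed here, because no probe set with its symbol alone was in the annotation used.

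The arrays had been scaled to a common level, with a mean of 100 after trimming 2% of values at each end. Median signals ran from 33.6 to 34.8 on the null arrays and from 35.5 to 37.2 on the control arrays. Arrays of a genotype correlated at 0.964 to 0.977 over the tested genes. All 16 measured markers of muscle, nervous system, epidermis, trachea, fat body, hemocytes and gut lay above the filter level in the control embryos. Hybridisation took place on 4 days, each with 1 null and 1 control array. Fluidics module 4 held all control arrays and 2 of the null arrays.

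In the null, 489 of the 8359 genes lay at least 0.6 below the control. At least 1 hypomorph had moved past 0.4 in 280 of them, and 209 had all hypomorphs within 0.4 of the control. Of these 209, 93 were less than 0.6 below at least 1 hypomorph, which left the 116. The median difference of the 116 genes between null and control was -0.90 on the log2(signal + 16) scale, with a range from -4.13 to -0.61. The median over all tested genes was -0.01. A difference of at least 2 was found for 9 genes, a difference from 1 to less than 2 for 32 and a smaller one for 75. In 8 genes the null mean was under the filter level of 9.28 signal units.

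Genes at the edge of the rule differed little from those left out. With the smallest distance of the null below the control or a hypomorph as the measure, CG4829 at 0.6, KFase at 0.601 and p47 at 0.601 were just inside. Tdg at 0.598, sktl at 0.598 and Targ2 at 0.594 were just outside. With the largest distance of a hypomorph from the control, squ at 0.397, XRCC1 at 0.39 and Reg-5 at 0.382 were kept, while CG5188 at 0.411, CG15152 at 0.412 and Obp44a at 0.433 were not. Obp44a, an odorant-binding protein gene, had a null difference of -2.52 and would otherwise have stood among the largest.

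In most of the genes every null array was low. All 4 null arrays lay below all 4 control arrays in 105 of the 116 genes, against 11.3% of all tested genes. In 98 genes they lay below all 16 other arrays, against 3.45% of all tested genes. By limma's moderated test with Benjamini-Hochberg adjustment over all genes, 115 of the 116 were called lower in the null, against 10.9% of all genes, and 0 were called higher, against 8.86% of all genes. The selection used this contrast, so nothing is read from these counts. The gene not called was JTBR, with a difference of -0.69. The 11 genes whose null and control arrays overlapped were atilla, DhpD, CG17294, XRCC1, Acox57D-p, JTBR, squ, KFase, Usp14, sei and FoxL1.

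**Figure D1:**
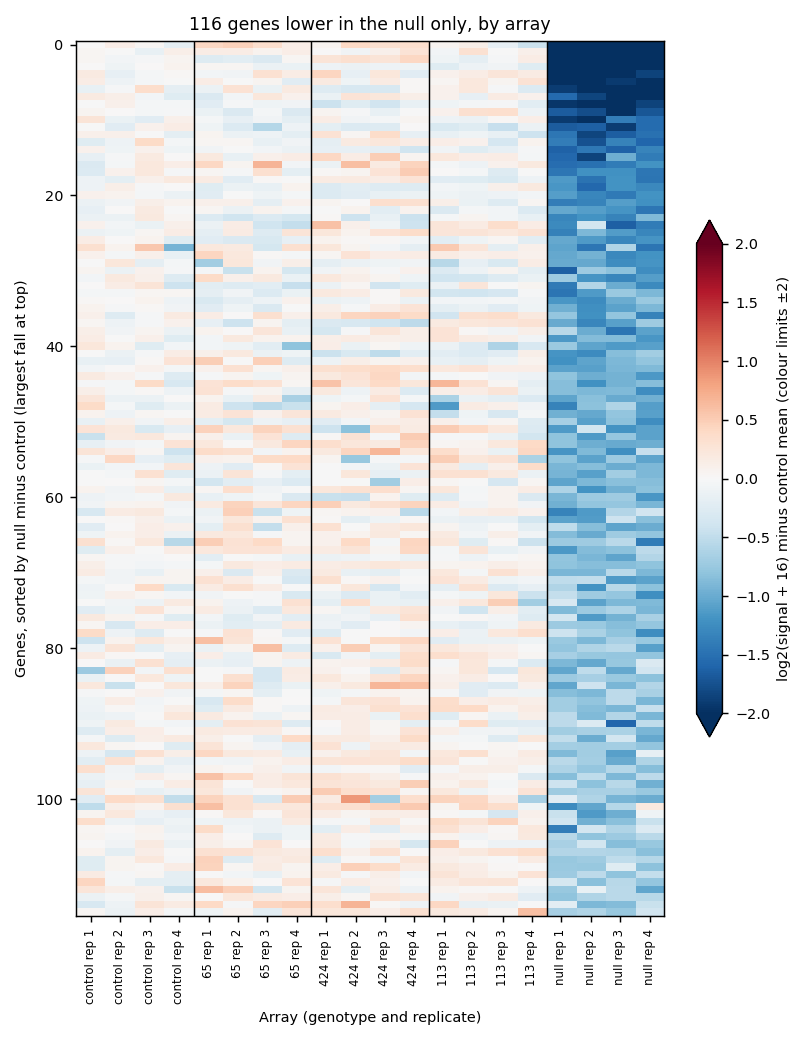
Colour shows log2(signal + 16) minus the control mean for the 116 genes, 1 row per gene ordered by the null difference, and 1 column per array grouped by genotype. Colour is limited to 2 in either direction, the 4 null columns are low in most rows, and the 12 hypomorph columns stay near the control, with medians of 0.03 for 65, 0.07 for 424 and 0.02 for 113.

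Genes for RNA processing, decay and translation held the largest difference. There were 10 of them, from -4.13 to -0.61. Uhg1, a non-coding host gene whose introns give rise to small nucleolar RNAs, had control signals of 320, 349, 325 and 279. Signals on the 12 hypomorph arrays ran from 232 through a median of 374 to 441. The null arrays read 1.59, 8.38, 1.47 and 1.74. Every null array was thus under the filter level, while no other array was below 232, and the groups did not overlap. The difference of -4.13 ± 0.13 (SE) was the most negative among all 8359 genes, and its size depended on the pseudocount, at -6.47 with 1 and -2.50 with 64.

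Gar1, a protein of the H/ACA small nucleolar ribonucleoprotein that guides pseudouridylation, had control signals of 721, 765, 786 and 972. In the hypomorphs it ran from 811 through 937 to 1100, and in the null it read 456, 403, 392 and 403. The null arrays were the lowest of the 20, and the difference was -0.94 ± 0.10 (SE). Rat1 and pcm encode the nuclear and cytoplasmic exonucleases that degrade RNA from its 5′ end. Rat1 measured 367 ± 46.2 in the control and 186 ± 8.68 in the null (SD, n = 4), and pcm measured 238 ± 33.5 and 141 ± 5.33 (SD, n = 4). The translation termination factor eRF3 measured 1433 ± 244.3 in the control and 868 ± 82.7 in the null (SD, n = 4). Phf5a, a subunit of a splicing complex, measured 724 ± 33.6 and 432 ± 54.1 (SD, n = 4). The RNase P subunit Rpp30, the tRNA methyltransferase Trm1, the phenylalanyl-tRNA synthetase subunit beta-PheRS and translin, encoded by trsn, completed this group.

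Signalling genes numbered 8, from -2.39 to -0.76. The gene casp encodes caspar, a negative regulator of the immune deficiency pathway. Its control arrays read 560, 525, 556 and 581, the hypomorph arrays ran from 467 through 515 to 574, and the null arrays read 113, 100, 108 and 59.9. Replicate 4 of the null was the lowest, and without it the difference moved from -2.39 ± 0.11 (SE) to -2.21. Myd88, the adaptor of the Toll receptor, had a smaller difference of -0.83 ± 0.09 (SE), with 279, 264, 265 and 271 in the control and 150, 136, 122 and 175 in the null. All 4 null arrays of both genes lay under every other array. The guanine nucleotide exchange factor gene GEFmeso read 199, 148, 138 and 177 in the control against 31.6, 26.5, 52.7 and 45.7 in the null. The gene pcs read 291, 283, 273 and 274 against 77.5, 70.3, 57.2 and 74.5.

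The TGF-beta family ligand genes myo and mav were both in the set and both on chromosome 4. The mav arrays read 326, 424, 306 and 366 in the control, from 292 through 377 to 544 in the hypomorphs, and 197, 226, 239 and 157 in the null. Its 4 null arrays were below all others, at a difference of -0.76 ± 0.15 (SE). The myo means were 158 ± 36.7 in the control and 84.0 ± 19.1 in the null (SD, n = 4). The G-protein-coupled receptor gene mth, methuselah, and the heparin-binding growth factor gene miple1 differed by -1.11 and -0.76.

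Enzymes of metabolism formed the largest group, with 12 genes from -2.04 to -0.66. The gene pr, purple, encodes 6-pyruvoyl-tetrahydropterin synthase of pteridine synthesis. Control arrays read 274, 298, 267 and 267, hypomorph arrays ran from 200 through 252 to 272, and null arrays read 60.2, 55.0, 42.6 and 65.2. The null arrays stood clear of the rest, at -2.04 ± 0.10 (SE). All 4 arrays of 424, at 200, 232, 208 and 247, lay under the lowest control, as did some arrays of 65 and 113. DhpD, another pteridine enzyme gene, measured 39.1 ± 13.5 in the control and 14.6 ± 7.18 in the null (SD, n = 4), and its groups overlapped.

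Smaller differences than that of pr were found for other metabolic genes. ND-B17, a subunit of respiratory complex I, read 380, 378, 348 and 330 in the control and 159, 135, 124 and 148 in the null. The very-long-chain acyl-CoA synthetase gene bgm, bubblegum, read 381, 379, 393 and 350 against 158, 148, 180 and 219. Adss, adenylosuccinate synthetase of purine synthesis, read 659, 617, 636 and 599 against 313, 259, 291 and 330. For these genes the 12 hypomorph arrays began at 293, 301 and 512 respectively, above every null array. The lysosomal enzyme gene Naglu, the malate dehydrogenase gene Mdh1, the D-amino acid oxidase gene Daao2, the GABA transaminase gene Gabat, the kynurenine formamidase gene KFase, Cndp2 and the acyl-CoA oxidase gene Acox57D-p were the remaining members, at -1.30 to -0.66.

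Detoxification was represented by 4 genes, all on chromosome 2, which held 68.1% of the whole set. GstE1 encodes a glutathione transferase, an enzyme that conjugates glutathione to reactive compounds. It read 171, 187, 246 and 166 in the control, from 150 through 182 to 237 in the hypomorphs, and 39.5, 30.5, 34.1 and 16.2 in the null. Its relative GstE12 read 291, 286, 365 and 245 in the control, from 256 through 291 to 365 in the hypomorphs, and 147, 130, 175 and 150 in the null. Both had null arrays below all others, at -2.19 ± 0.15 and -0.91 ± 0.12 (SE). The cytochrome P450 gene Cyp4ac3 and the glucuronosyltransferase gene Ugt37D1 differed by -0.79 and -0.90.

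The 7 genes for receptors, channels and synaptic proteins all lay on chromosome 2, which held 68.1% of the whole set. NtR read 526, 467, 525 and 462 in the control and 151, 174, 151 and 189 in the null, with hypomorphs between 371 and 489. Every null array lay below all other arrays, with a difference of -1.49 ± 0.08 (SE). The scaffold gene ckn, caskin, read 278, 259, 320 and 344 in the control against 128, 96.7, 121 and 98.6 in the null. The remaining genes were side-V, the acetylcholine receptor chaperone gene RIC-3, the ERG-type potassium channel gene sei, PICK1 and the Cdk5 activator gene Cdk5alpha, from -1.17 to -0.62.

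Genes of muscle, extracellular matrix and cell polarity numbered 4. The gene pio, piopio, encodes a zona pellucida domain protein of the apical extracellular matrix that links epithelia and tracheal cells to the cuticle. It read 277, 229, 239 and 247 in the control, from 210 through 258 to 305 in the hypomorphs, and 34.0, 36.5, 54.0 and 36.9 in the null. No array of another genotype came near the null arrays, and the difference was -2.24 ± 0.11 (SE). Dyb encodes dystrobrevin, a cytoplasmic partner of dystrophin in the membrane complex of muscle. Its arrays read 18.0, 17.6, 22.3 and 29.4 in the control, from 15.4 through 22.1 to 36.7 in the hypomorphs, and 0.186, 2.01, 4.24 and 5.8 in the null. All null arrays were under the filter level, and the difference of -0.99 ± 0.18 (SE) became -2.74 with a pseudocount of 1 and -0.35 with 64. The cell polarity gene l(2)gl and the cytoskeletal gene Kank differed by -0.84 and -1.16.

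In the smaller groups, sxc, the O-GlcNAc transferase of the Polycomb group, read 325, 368, 417 and 363 in the control and 172, 162, 153 and 125 in the null. The Paf1 complex gene Rtf1, the TFIIH subunit gene Ssl1 and the transcription factor genes bowl and FoxL1 were at -1.11 to -0.61. DNA repair was represented by mre11 of the double-strand break complex, by Hus1-like of the checkpoint clamp and by XRCC1 of single-strand break repair. The mre11 arrays read 66.8, 66.6, 70.6 and 70.7 in the control, from 48.0 through 63.0 to 80.6 in the hypomorphs, and 14.8, 22.6, 34.7 and 29.5 in the null. Its null arrays were again below every other array, and the differences of the 3 repair genes were -1.06, -1.11 and -0.74. The germ cell genes were wun2, a lipid phosphate phosphatase that acts in germ cell migration and survival, out, and the piRNA pathway genes mael and squ. The wun2 arrays read 584, 545, 506 and 426 in the control and 286, 252, 258 and 221 in the null.

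Protein turnover was represented by cer, Usp14, Usp12-46 and p47. The gene cer, crammer, encodes an inhibitor of cathepsin proteases and read 194, 216, 253 and 222 in the control, from 198 through 246 to 318 in the hypomorphs, and 63.3, 49.7, 104 and 73.3 in the null. The transporter genes were MFS18, the phosphate transporter gene NaPi-III and the amino acid transporter gene JhI-21. MFS18 read 278, 270, 243 and 293 in the control, from 257 through 292 to 338 in the hypomorphs, and 4.13, 2.23, 8.92 and 26.1 in the null. Of its null arrays, replicate 4 alone was above the filter level. The difference was -3.52 ± 0.16 (SE).

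The other 52 genes were placed in no role group, and 31 of the 116 carry only a CG or CR number. Among the ungrouped genes, sprt had the largest difference, with 595, 556, 572 and 601 in the control, from 472 through 586 to 776 in the hypomorphs, and 93.9, 104, 73.1 and 83.5 in the null. Marc read 136, 103, 115 and 120 in the control and 5.6, 13.1, 6.98 and 21.2 in the null. CG11275 read 130, 124, 109 and 94.0 against 28.1, 20.1, 2.51 and 14.7. In these 3 genes no null array reached any other array. Nmda1, which encodes a protein named for its association with the NMDA receptor and is not a receptor subunit, read 76.8, 94.3, 115 and 108 in the control, from 89.2 through 108 to 166 in the hypomorphs, and 23.5, 24.3, 27.2 and 33.8 in the null. CG18088 differed by -1.33, with 154 ± 23.6 in the control and 51.3 ± 6.51 in the null (SD, n = 4). The non-coding RNA gene lncRNA:CR42862 read 1880, 1680, 1750 and 1610 in the control and 955, 919, 928 and 723 in the null. CG3566, on the X chromosome, read 197, 219, 314 and 230 against 81.1, 59.7, 84.2 and 68.5.

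Further named genes in no role group were Ccdc58, atilla, Reg-5, Rbm13, Pi3K59F, Jhbp2, Boot, Mctp, Pldn, Fkbp59, Plzf, hob, JTBR, S6KL, Pld3, GILT3, HPS1 and l(2)k05819. They ranged from -1.60 for l(2)k05819 to -0.64 for HPS1.

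**Figure D2:**
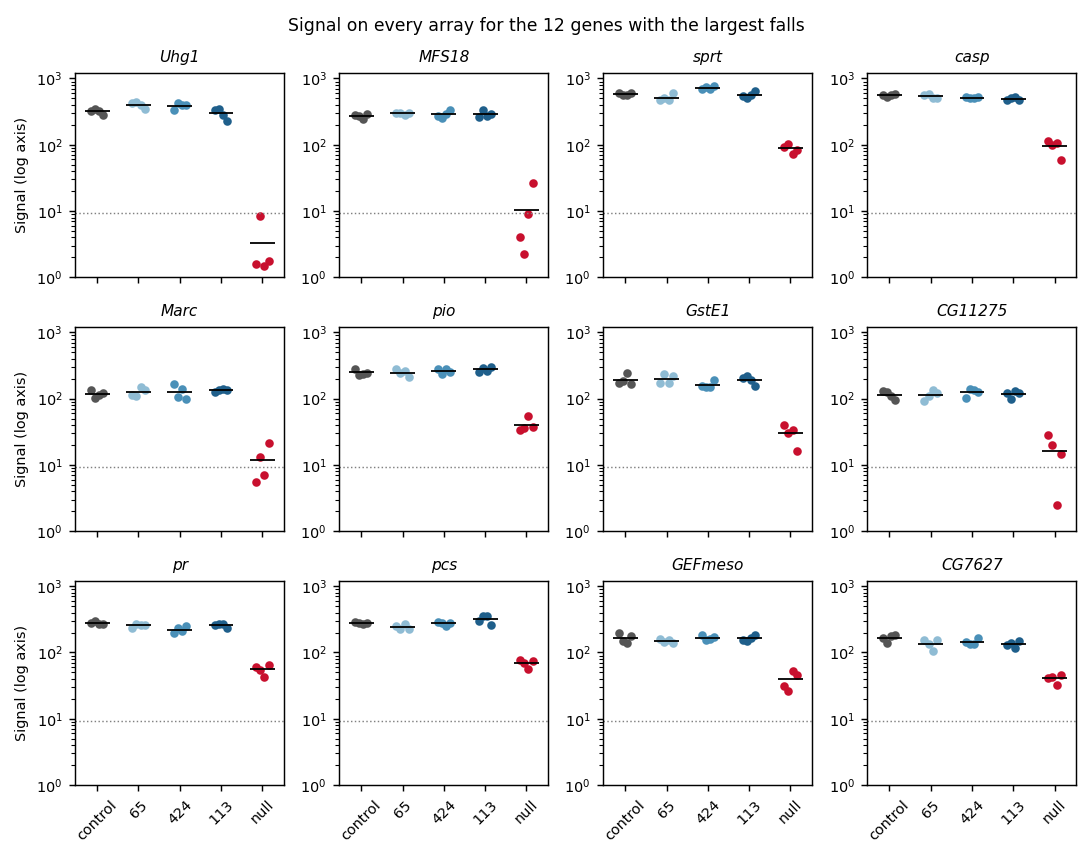
Signal per array on a log axis for the 12 genes with the largest null difference, with 1 colour per genotype and 4 points each. The dotted line marks the filter level of 9.28 signal units, and the null points of Uhg1 lie below it, between 1.47 and 8.38.

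The set was placed unevenly on the chromosomes, a property that the selection did not use. Of the 116 genes, 79 lay on chromosome 2, or 68.1%, against 37.8% of the 8359 tested genes. By arm, 38 were on 2L and 41 on 2R. Chromosome 3 held 26, or 22.4%, against 44.3% of tested genes, the X chromosome held 8 and chromosome 4 held 3. All 9 genes with a difference of at least 2 were on chromosome 2, as were 19 of the 20 largest, the exception being CG3566. The median difference was -0.94 for the genes on chromosome 2 and -0.86 for the others, among which the most negative value was -1.51.

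Genes lower in the null that did not belong to the set had a share on chromosome 2 near that of all tested genes. Of the 373 other genes at least 0.6 below the control in the null, 145 were on chromosome 2, or 38.9%. They held 11.3% on the X chromosome, against 17% of all tested genes. The mirror set of 54 genes higher in the null alone had 44 on chromosome 2, or 81.5%. Among 23 genes lower by the same rule in 424 alone, 4 were on chromosome 2 and 12 on 3L. The share of the set on chromosome 2 stayed between 61.7% and 79.5% under every alternative setting of the rule and the scale. As mef2 lies on chromosome 2 and the labels do not give the stock of the null, loss of mef2 and other sequence differences on that chromosome cannot be told apart.

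**Figure D3:**
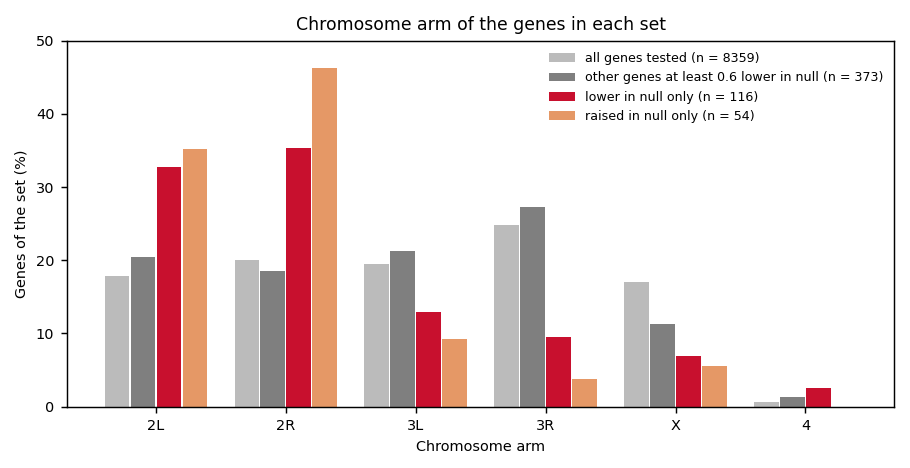
Percent of genes on each chromosome arm for the 116 genes, for all 8359 tested genes, for the 373 other genes at least 0.6 lower in the null and for the 54 genes higher in the null alone. The set holds 32.8% on 2L and 35.3% on 2R, against 17.9% and 20% of all tested genes.

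On chromosome 2 each run of the gene order held at least 1 gene of the set. When the tested genes of each arm were divided into 10 equal runs by gene order, the number of set genes per run ran from 1 to 7 on 2L and from 1 to 8 on 2R. On 3L it ran from 0 to 4, with 4 and 3 of the 15 genes in the first runs, and on 3R from 0 to 5, with 5 of the 11 genes in the first run. Only ckn and pcs were next to each other in the order of tested genes, so that 2 genes, or 1.72%, had a neighbour in the set. Over all tested genes, 2.72% had a neighbour in the set.

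The same rule applied to the other genotypes returned far fewer genes. With 65 in place of the null, 2 genes were lower and 1 was higher, with 424 the counts were 23 and 8, and with 113 they were 3 and 3. The null had 116 lower and 54 higher.

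The choice was repeated without replicate number 1, 2, 3 or 4 of every genotype, and the null difference was then read in the arrays left out. The 4 repeats chose 110, 108, 116 and 114 genes, of which 95, 87, 96 and 98 belonged to the 116. Their medians in the choosing arrays were -0.93, -0.92, -0.90 and -0.93. In the arrays left out, the medians were -0.87, -0.87, -0.90 and -0.84. The null array was below the control array in 106, 102, 112 and 109 of the genes, against 53%, 50.6%, 49.9% and 51.8% of all tested genes. It was at least 0.6 below in 78, 76, 87 and 80 genes, against 11.5%, 9.88%, 10.5% and 12.6% of all. In the left-out arrays the medians of the hypomorphs lay between -0.05 and 0.15.

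**Figure D4:**
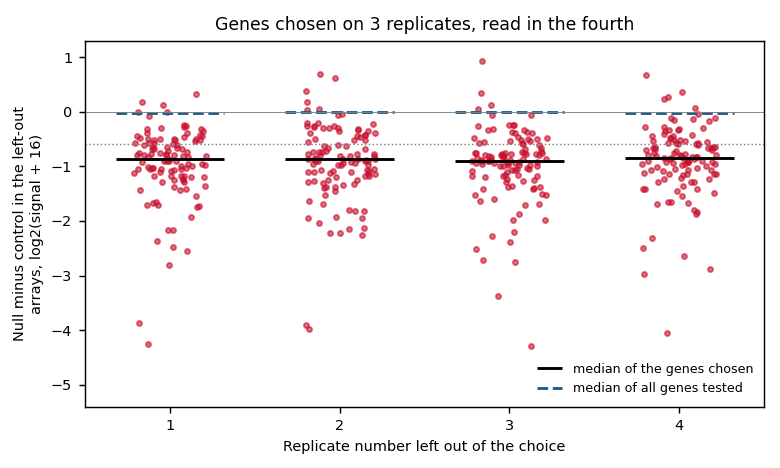
Null minus control, in log2(signal + 16), read in the replicate left out of the choice, with 1 point per chosen gene and the median as a solid bar, for replicates 1 to 4; the dashed bar is the median of all tested genes and the dotted line marks -0.6. The medians of -0.87, -0.87, -0.90 and -0.84 lie close to those of the choosing arrays.

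The null difference was also read within each day and module, on the same arrays that chose the genes, so that the selection itself brings these values near -0.90. By hybridisation day the median of the 116 genes was -0.92, -0.94, -0.95 and -0.91. The genes lower in the null numbered 114, 115, 116 and 115, against 53%, 50.6%, 49.9% and 51.8% of all tested genes. Within fluidics module 4, the 2 null arrays against the 4 controls gave -0.90, and all 116 genes were lower, against 51% of all tested genes. Within module 3, 2 null arrays against 2 arrays of 113 gave -0.96, as did 2 arrays of 65.

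The hypomorphs were held near the control by the selection, which also required the null to be 0.6 below each of them and so favoured higher hypomorph values. In 424, 76 genes were above and 40 below the control, with a median of 0.07 against 0.01 over all genes. In 65 the median was 0.03, and in 113 it was 0.02. All 3 hypomorph means were below the control in 19 genes, against 26% of all tested genes, and above it in 33, against 27.7%. The 33 are 28.4% of the set, near that background. All 4 arrays of 65 lay above all controls in 5 genes, against 5.48% of all genes, and below them in 4, against 5.32%. For 424 the counts were 7 above, against 7.55%, and 9 below, against 7.96%, and for 113 they were 4 above, against 5.86%, and 2 below, against 6.56%.

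Few of the genes were called in a hypomorph by limma with adjusted p under 0.05. Allele 65 had 1 gene higher, CG4045 at 0.32, against 2.98% of all genes, and 0 lower, against 3.1%. Allele 424 had sprt at 0.31, CG13585 at 0.35 and CG4045 at 0.36 higher, against 4.67% of all genes, and pr at -0.30 and Reg-5 at -0.38 lower, against 5.49%. Allele 113 had 0 called, against 3.43% higher and 3.95% lower. At an unadjusted p under 0.05 the numbers were 8, 21 and 10 for 65, 424 and 113, against 16.6%, 23.2% and 18.7% of all genes. The count for 65 was 0 without control replicate 1 or 4 or without 65 replicate 2 or 4, and that for 424 was 2 without control replicate 3 and 3 without 424 replicate 2 or 3. With the fluidics module as a block, 0 were called in each. Module 4 held all control arrays and no hypomorph array, so that fit compares them only indirectly, through the null arrays. Its lack of calls therefore does not bear on those genes. On the arrays, CG4045 read 210, 230, 231 and 210 in the control, 312, 253, 277 and 307 in 424 and 105, 121, 122 and 109 in the null, so that these 3 genotypes did not overlap.

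The rule held both 113 and 65 within 0.4 of the control, so it also bounded the difference between them, which is given as a description. Across the 116 genes this difference had a median of 0.00 and ran from -0.43 to 0.44, with 58 genes on each side. By limma, 1 gene was called lower in 113, against 1.03% of all genes, and 0 higher, against 0.73%. At an unadjusted p under 0.05 there were 16, against 11.6% of all genes. The called gene was CG2614, at -0.42 ± 0.11 (SE), with 116, 127, 110 and 124 in 65 and 68.9, 95.3, 78.7 and 99.4 in 113. When 1 array was left out, 2 genes were called without 113 replicate 4, null replicate 2 or null replicate 4, and 1 without 65 replicate 3, 424 replicate 4, 113 replicate 2 or null replicate 3. Without any other array the number was 0. With a pseudocount of 1 it was 0.

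A second probe set gives another reading of the same transcript region or of another part of the gene. Of the 116 genes, 10 had other probe sets, 11 in all, of which 9 were above the filter level. Probe sets for GEFmeso, side-V, CG31999 and lncRNA:CR42862 were lower in the null by at least 0.4, at -0.55, -0.50, -0.81 and -1.05. Null and control arrays overlapped for GEFmeso and side-V, and the GEFmeso probe set was at 0.60 in 424 and 0.48 in 113, past the limit of the rule. The other probe set of ckn measured 115 ± 22.1 in the control and 124 ± 16.2 in the null (SD, n = 4), a difference of 0.11 against -1.32 for the brighter one. CG7627, CG5532, RIC-3 and Usp14 had second readings of -0.13, -0.23, -0.22 and -0.18. Their control means were only 13.0, 14.3, 13.8 and 27.3 signal units, and the pseudocount of 16 compresses differences at such low signals. The second CG5532 probe set was at -0.54 in 424, past the limit of the rule. With the mean over probe sets, the difference was -0.60 for ckn, -0.90 for CG7627, -0.55 for side-V, -0.43 for Dyb, -0.54 for CG5532, -0.46 for RIC-3, -0.41 for Usp14 and -1.14 for GEFmeso. The means for Dyb and side-V include a probe set under the filter level. These probe sets measured 3.3 and 6.25 in the control and 5.63 and 6.39 in the null. The remaining 106 genes rest on 1 probe set each.

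**Figure D5:**
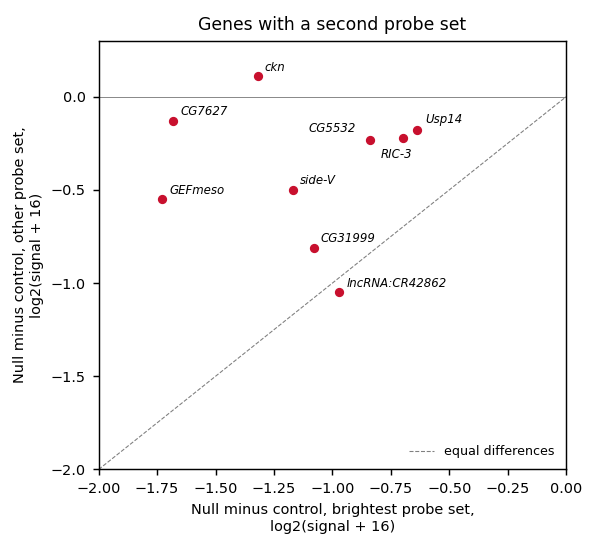
Null minus control, in log2(signal + 16), of the brightest probe set on the horizontal axis and of another probe set of the same gene on the vertical axis, for the 9 other probe sets above the filter level. The dashed line marks equal differences, and lncRNA:CR42862 lies near it while ckn, at 0.11, lies above 0.

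Over 22 lists with 329 measured genes, 4 belonged to it, or 1.22%, close to the 1.39% of all tested genes. They were pio, Dyb, Uhg1 and Gar1, and 19 lists had none. These lists had been written with earlier results of the same arrays known.

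Contractile genes were compared as a list. None of the 18 measured sarcomere genes belonged to the set, which is near the 1.39% of all tested genes. By limma 12 fell in the null, against 10.9% of all genes, and 1 rose, against 8.86%. The median difference of the 18 genes was -0.69 in the null, -0.55 in 113, -0.41 in 424 and -0.18 in 65. They did not share a single course. The chaperone gene unc-45 lay between -0.77 and -0.69 in every mutant, and tmod between 0.28 and 0.52. Obsc, Zasp52, Mlp84B, mask and Strn-Mlck were not called in the null. Actn, alpha-actinin, met the null limit at -0.61 (adjusted p = 0.00026) but was at -0.45 in 424. The muscle actin gene Act87E differed by -0.24 in the null (adjusted p = 0.0127) and by 0.10 to 0.16 in the hypomorphs, and Act79B by -0.32 (adjusted p = 0.0102) and by 0.08 to 0.16. For both actin genes the null difference was smaller than the rule required.

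Among 23 measured genes of muscle membrane, calcium handling and energy supply, Dyb was the only one in the set. By limma 7 of them fell in the null, against 10.9% of all tested genes, and 1 rose, against 8.86%. The partners of Dyb in the dystrophin complex were measured too. Scgalpha, a sarcoglycan, fell by 1.04 in the null (adjusted p = 1.76e-05), but it was also at -0.68 in 113. For Dys, dystrophin, the difference was -0.23 (adjusted p = 0.328), and for Dg, dystroglycan, it was -0.04 (adjusted p = 0.823). Scgdelta was at -0.14 (adjusted p = 0.828) and the syntrophin gene Syn1 at -0.24 (adjusted p = 0.511). Scgbeta was at -0.60 (adjusted p = 0.133) on signals of 18.7 ± 7.54 in the control and 6.87 ± 5.62 in the null (SD, n = 4).

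The nucleolar list, with 12 measured genes, held Uhg1 and Gar1. In the null 8 of its genes were called higher, against 8.86% of all tested genes, and 3 lower, against 10.9%. Gar1 works in the H/ACA particle together with Nop60B, the pseudouridine synthase dyskerin, and with NHP2 and Nop10. Nop60B measured 7.47 ± 5.69 in the control and 71.3 ± 8.65 in the null (SD, n = 4), and it rose by 1.92 (adjusted p = 1.38e-07) while the hypomorphs were at -0.32 to -0.15. Its control mean was under the filter level, so the size of this difference is set in part by the pseudocount of 16. NHP2 rose by 0.45 (adjusted p = 0.000147), with hypomorphs at 0.29 to 0.39, and Nop10 differed by 0.29 (adjusted p = 0.356). The methyltransferase gene Fib, fibrillarin, rose by 0.39 (adjusted p = 0.00066). The gene udd fell by 2.22 in the null, but it was at -2.01 in 65, 0.46 in 424 and -2.60 in 113, so it was not in the set.

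In the epidermis and apical matrix list, pio was the only one of 29 measured genes in the set. The gene dpy, dumpy, which encodes a very large apical matrix protein of the same domain family, differed by -0.55 in the null (adjusted p = 0.0116), by -0.15 in 65, -0.33 in 424 and 0.02 in 113. The marker dp of the control stock is an allele of dumpy, and the labels do not name the stock of the null. For dpy, mef2 genotype and this marker therefore cannot be told apart. The zona pellucida genes mey, neo and cyr were not called, with null differences from -0.18 to -0.05. In this list 5 genes were called lower in the null, against 10.9% of all tested genes, and 3 higher, against 8.86%.

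Signals of different probe sets depend on the probes as well as on the transcript and do not rank genes by level. As signals, the control means of the 116 genes had a median of 139 signal units, against 71.9 for all tested genes, and ran from 21.8 to 1730. In the null the median was 47.3. Their residual spread between arrays of a genotype had a median SD of 0.183 on the log2 scale, against 0.216 for all tested genes.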

How the data were processed

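Total RNA from 20 pools of whole embryos was hybridised to 1 Affymetrix array each. The deposited values are linear intensities per probe set, for which the submitters' processing notes name MAS5. Its version is not given in the sources used here. No genome build is given either. Genes were placed by chromosome arm, and by their order along it, from the RefSeq Release 6 gene table. Detection calls were not used, and the number of arrays limits the precision.

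Of 14010 probe sets, 44 were controls, 12442 had 1 symbol, 327 several and 1197 none; 12397 of the single-symbol ones matched the gene table. They stood for 10843 genes, of which 8359 passed the filter at the lower quartile of mean log2 level. Values were analysed as log2(signal + 16) with limma 3.58.1 in R 4.3.3, with 1 mean per genotype, eBayes with a trend and Benjamini-Hochberg adjustment over all genes. The fit was tested on simulated data. Statistics other than the fit used Python 3.11.15, numpy 2.4.6 and pandas 2.3.3. Day, module and fluidics status came from the arrays' run records, in which 1 fluidics run, 65 replicate 4, was marked as aborted.

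The members and lists were chosen with earlier results of these data known, and role groups after membership was known. Named were the 20 largest differences, every member with a name, list members, the genes next to each limit and those whose other probe sets differ. CG4045, CG13585, CG2614, Actn, Act87E, Act79B and the list genes with values were chosen after their values were seen. Alternatives covered the pseudocount, scaling, filter, probe set choice, rule limits, blocks, the variance trend and leaving out each array. A looser reading of the rule and a reading without the aborted array were added after seeing the data.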

Additional observations from a re-analysis of the deposited data

Results flagged for a closer look

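Among 145 genotype groups of 4 arrays, from the 29 genes given by array, 6 had 1 array far from the other 3. Chance gives about 1 in 20, so this number is not above it. Uhg1 in the null read 8.38 in replicate 2 and 1.47 to 1.74 in the others, all under the filter level. For pio in the null, replicate 3 read 54.0 against 34.0 to 36.9. The transcript of NtR in 424 read 371 in replicate 4 against 436 to 441. Myd88 in 424 read 262 in replicate 3 against 247 to 249. CG3566 in 113 read 183 in replicate 3 against 250 to 261. The lncRNA:CR42862 signal in the null was 723 in replicate 4 against 919 to 955. None of these arrays moved a gene of the null across a control array.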

How the results depend on the processing

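The number of genes meeting the rule was 179 with a pseudocount of 1 (102 of the 116 shared), 44 with 64 (43 shared), 52 with a minimum of 0.8 and 209 with the looser reading that drops the distance from the hypomorphs, which was chosen after seeing the data. Median centring left 93 genes and quantile normalization 98, all of them among the 116. A hypomorph limit of 0.3 gave 96 genes, a limit of 0.5 gave 125, and a minimum of 0.5 gave 170. The number was 109 to 122 with 1 array left out, with 100 to 115 shared. The median null difference was -1.16 with a pseudocount of 1, -0.59 with 64, -0.85 with median centring, and -0.87 with quantile normalization and with the mean of probe sets. With 1 array left out it ran from -0.92 to -0.87. The median over all genes was -0.01, and 0.04 with median centring. Genes called between 113 and 65 numbered 0 with a pseudocount of 1, with quantile normalization, without the filter and with the module block, 3 with a pseudocount of 64, and 0 to 2 with 1 array left out. Calls in 65 numbered 0 with the day or module block and 0 to 1 with 1 array left out. Calls in 424 numbered 0 with the module block, 3 without the variance trend, and 2 to 5 with 1 array left out. Of 3248 values of single genes under the alternatives, 0 changed direction and 177 moved by more than the replicate SD. With the module block, trsn went from -0.72 to -0.42. The causes were not tested, apart from the pseudocount, which compresses low signals.

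The pairing by replicate number was weak. Deviations of arrays from their own genotype mean were correlated between each control array and the same-numbered array of each mutant. The correlations were -0.02 to 0.06 for the null, 0.03 to 0.11 for 65, -0.01 to 0.12 for 424 and -0.01 to 0.17 for 113. Replicate numbers 1 to 4 of control, null, 424 and 113 matched hybridisation days 1 to 4. With the replicate block, 2 genes were called in 65 and 2 between 113 and 65, and 115 were lower in the null.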
